A study of Mus musculus with 4 samples.

Results

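Amino acid and peptide transporters were taken as all probes whose gene name on the array begins with Slc1a, Slc3a, Slc6a, Slc7a, Slc15a, Slc36a, Slc38a or Slc43a. This gave 115 of the 41174 probes that are not controls, under 67 of 27827 gene names. The names fell into 8 families, with 7 names in SLC1, 2 in SLC3, 20 in SLC6, 16 in SLC7, 5 in SLC15, 4 in SLC36, 10 in SLC38 and 3 in SLC43. Slc7a6os is among them by its spelling although it is named for its position opposite Slc7a6 and is not a transporter.

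The study measured RNA in mouse embryonic fibroblasts (MEFs) with and without Ip6k1, the gene of an inositol hexakisphosphate kinase that makes inositol pyrophosphates. There were 2 Ip6k1+/+ lines and 2 Ip6k1-/- lines, each from a different E14 embryo of one cross between heterozygous parents. All 4 lines carried SV40 large T antigen, which immortalised them, and all were growing exponentially after a thaw and a pair of passages. RNA of each line went to 1 single-colour Agilent array, so each genotype was represented by 2 arrays and each line by 1 culture. The lines are separate embryos, and the p-values measure the spread between these 4 cultures only. Ip6k1 checked the labels. Its probe A_51_P103718 read 2.46 and 2.61 in Ip6k1+/+ and -1.98 and -1.22 in Ip6k1-/-, and its other probes, A_52_P413035 and A_51_P213766, were well above background in both Ip6k1+/+ lines and in neither Ip6k1-/- line.

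Amino acids cross membranes through carriers of a few large families. SLC1 carriers move glutamate or small neutral amino acids with sodium, SLC38 carriers bring in glutamine and other neutral amino acids, and SLC7 light chains exchange amino acids as partners of the SLC3 heavy chains or, as cationic carriers, without one. SLC6 carriers take up neurotransmitters, taurine, creatine and glycine, SLC15 and SLC36 carriers use protons to move peptides and amino acids, often at lysosomes, and SLC43 carriers pass large neutral amino acids by facilitated diffusion. In cultured fibroblasts these carriers feed protein synthesis, glutathione synthesis and the signal of amino acid supply to mTORC1, and several of them are transcribed more when amino acids run short.

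A level below is the log2 signal of a probe relative to the 75th percentile of its array, so that 0 is the signal of that percentile, and levels are given in the order replicate 1, replicate 2 of each genotype. A difference is the Ip6k1-/- mean minus the Ip6k1+/+ mean in log2 units, with the standard error (SE) of the limma fit to all probes. A level of one probe cannot be set against that of another. In bulk RNA, fewer cells that express a gene and less of its RNA per cell cannot be told apart.

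A large part of the transporter repertoire was below detection in these cells. Of the 67 gene names, 29 had a probe well above background on all 4 arrays, 40 had one on at least 1 array, and 27 had none on any array. On all 4 arrays there were 8 of 16 names in SLC7, 6 of 10 in SLC38, 5 of 20 in SLC6 and 4 of 7 in SLC1, while 10 of the 20 SLC6 names were on no array. The undetected SLC6 members included the noradrenaline, dopamine and serotonin transporters Slc6a2, Slc6a3 and Slc6a4, the glycine transporter Slc6a5 and the GABA transporter Slc6a11, all known from neurons or glia. Likewise, the intestinal peptide transporter Slc15a1 and the renal and intestinal neutral amino acid transporter Slc6a19 were well above background on no array. The number of transporter probes well above background was 53 in each Ip6k1+/+ line, 55 in Ip6k1-/- replicate 1 and 50 in Ip6k1-/- replicate 2, so the genotypes overlapped. No transporter probe passed that mark in both lines of one genotype and in neither of the other.

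**Figure D1:**
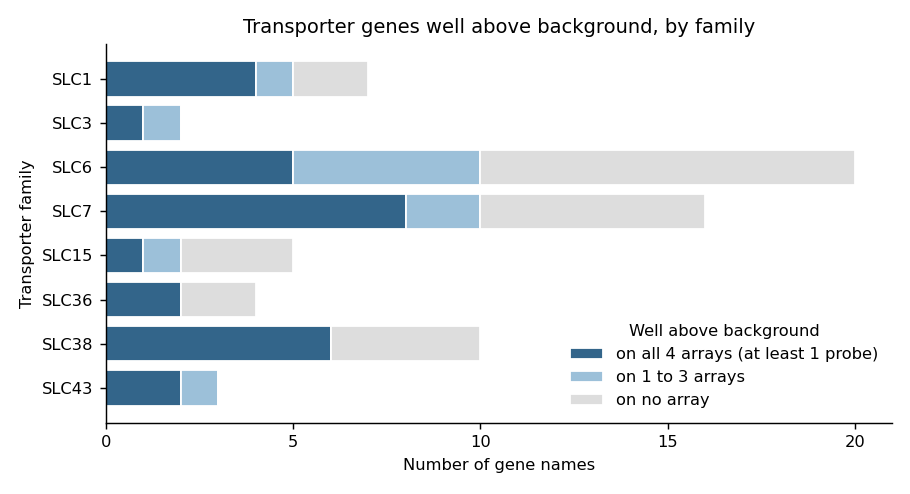
Number of transporter gene names by family (horizontal axis, gene names) with at least 1 probe well above background on all 4 arrays (dark), on 1 to 3 arrays (light) or on no array (grey). SLC6 holds the most names without detection, 10 of 20, while every SLC3 and SLC43 name was detected on at least 1 array.

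Markers of fibroblasts were present. All 11 fibroblast markers had a probe well above background on all 4 arrays, and 2 of the 11 genes were lower past the 2-fold cutoff given further on, Dcn and Pdgfrb. The probes of 3 of them, Col1a1, Col1a2 and Vim, were saturated, and the summed level of the other 8 was 7.38 and 7.71 in Ip6k1+/+ against 7.04 and 6.91 in Ip6k1-/-. This sum hides differences between lines of a genotype. Thy1 read 1.42 and 6.02 in Ip6k1+/+ and 3.98 and 5.52 in Ip6k1-/- with its brighter probe. The summed level of the 2 tested neuronal and glial markers of 6, Tubb3 and Mtap2, was 1.09 to 1.52 in Ip6k1+/+ and 1.79 to 2.05 in Ip6k1-/-, while Gfap and Syp were well above background on no array. Among the other lists the tested markers were Krt18 and Krt19 of 5 epithelial markers (2.07 to 2.15 against 2.04 to 2.71), Kdr of 4 endothelial (-3.99 to -3.65 against -2.94 to -1.59), Cd68 of 5 blood and macrophage (-3.06 to -2.63 against -2.52 to -1.82), Acta1 of 4 muscle (1.92 to 3.28 against 1.65 to 2.26) and none of 3 liver markers. The defining markers Cdh1, Pecam1, Cdh5, Ptprc, Emr1, Myod1, Myog, Alb and Ttr were well above background on no array. The part of these markers in the transporter results was not tested.

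Of the 115 transporter probes, 50 passed the filter for testing, which asks for a signal well above background in both lines of one genotype or the other, and they covered 30 of the 67 gene names. By limma, with p-values of all 21572 tested probes adjusted after Benjamini-Hochberg, 0 transporter probes were called in either direction at an adjusted p of 0.05, beside 0.0139% of all probes tested called lower and 0.0% called higher. The lowest adjusted p of a transporter probe was 0.994 in this limma fit. At an unadjusted p under 0.05 there were 3 transporter probes, all lower in Ip6k1-/-, in Slc43a1, Slc1a5 and Slc1a3, where 2.08% of all probes tested were lower and 1.27% higher at that level. The methods' t-test gave 3 transporter probes at that level, in Slc36a1, Slc3a2 and Slc1a5, a share of 6.0% beside 3.89% of all probes tested. After Benjamini-Hochberg adjustment it gave 0. Slc1a5 alone was reached at the unadjusted level by both tests. The Slc1a3 probe under 0.05 by limma was the dimmer A_52_P378975 (unadjusted p = 0.0426). Its brighter probe, A_51_P268697, had an unadjusted limma p of 0.068.

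Most differences were small and more of them were negative. Of the 50 tested probes, 34 differed by under 0.5 and 7 by 1 or more. With 1 probe per gene, 20 of the 30 tested genes were lower in Ip6k1-/- and 10 higher, 66.7% lower against 45.6% of all 14334 genes tested. The median difference over the 30 genes was -0.13, beside 0.04 over all genes tested, and was -0.05 without Ip6k1-/- replicate 2 and -0.06 without Ip6k1+/+ replicate 2. The Ip6k1-/- pair lay wholly below the Ip6k1+/+ pair for 15 of the 50 probes, a share of 30% against 12.8% of all probes tested, and wholly above it for 4, a share of 8.0% against 18.4%. An exact permutation test of 2 lines against 2 cannot reach the threshold, so these shares carry no test. They count probes and not genes, and Slc1a3, Slc38a1 and Slc38a10 each hold more than 1 of the 15 probes. Past the 2-fold cutoff, taken as a mean difference of 1 or more in which neither Ip6k1-/- line comes closer than 0.9 to the Ip6k1+/+ mean, were 3 genes lower, Slc1a3, Slc1a6 and Slc43a1, and 0 higher, 10.0% of the tested transporter genes. Of all gene names tested, 2.5% were lower and 1.49% higher past this cutoff. Without Ip6k1-/- replicate 1 the genes past the cutoff were 5 lower, with Slc7a3 and Slc7a11 added, and 1 higher, Slc6a17. Slc1a6 was not among the 3 lower genes without Ip6k1+/+ replicate 1, nor Slc1a3 among the 2 lower genes after normexp background correction. The share of all gene names past the cutoff is not given for these alternatives.

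**Figure D2:**
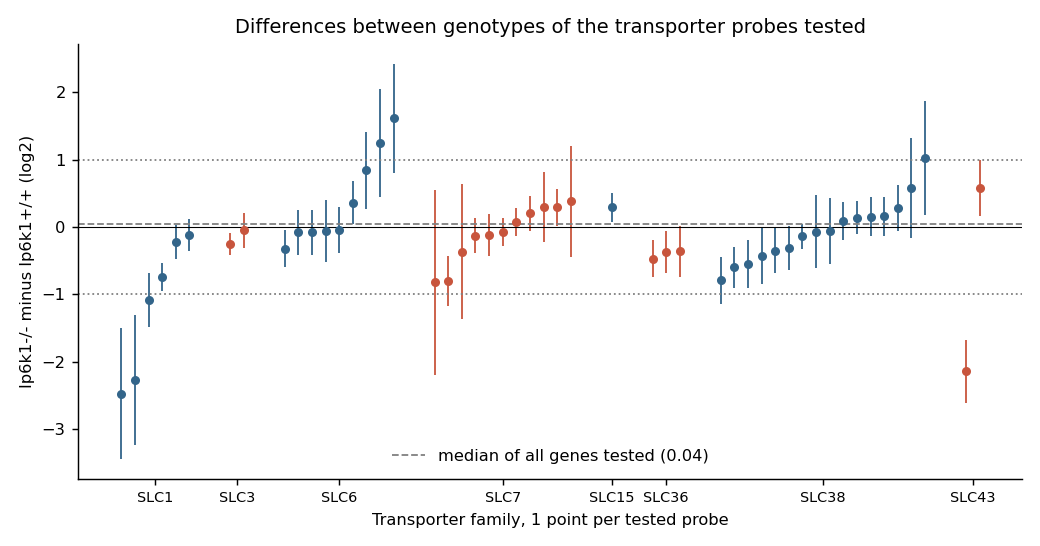
Difference between genotypes (vertical axis, Ip6k1-/- minus Ip6k1+/+, log2) of the 50 tested transporter probes, ordered by value within each family. Bars are the SE of the limma fit from 2 lines per genotype, dotted lines mark a 2-fold difference and the dashed line the median of all genes tested, 0.04. The SLC1 probes all lie below 0, the SLC38 probes lie on both sides of it, and 1 SLC43 probe, Slc43a1, stands at -2.14.

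By family, the medians over tested genes were -1.51 for SLC1 (4 genes), -0.25 for SLC3 (1 gene), -0.07 for SLC6 (6 genes), -0.10 for SLC7 (8 genes), 0.29 for SLC15 (1 gene), -0.42 for SLC36 (2 genes), 0.0 for SLC38 (6 genes) and -0.78 for SLC43 (2 genes). All 4 tested SLC1 genes and both tested SLC36 genes were lower in Ip6k1-/-, whereas SLC38 divided into 3 higher and 3 lower. The SLC1 median was -0.84 without Ip6k1-/- replicate 2 and -0.97 without Ip6k1+/+ replicate 1, so both of these lines contribute to its size.

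The glutamate carriers of SLC1 had the widest differences. Slc1a3, known as the glial glutamate transporter GLAST, gave levels of 0.35 and -0.96 in Ip6k1+/+ and -1.31 and -3.85 in Ip6k1-/- with probe A_51_P268697 at chr15:8584236-8584295 (mm9). Both Ip6k1-/- lines were below both Ip6k1+/+ lines, but the Ip6k1-/- lines lay 2.54 apart, and the difference was -2.27 (SE 0.97). Without Ip6k1-/- replicate 2 it was -1.0. A further probe, A_52_P378975, whose sequence is that of transcript AK050752, read -3.43 and -3.09 in Ip6k1+/+ and -4.03 and -4.68 in Ip6k1-/-, the last of these not well above background. The order of the genotypes was the same there and the difference was -1.09 (SE 0.40). The remaining Slc1a3 probe, A_51_P333324, was well above background on no array.

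Slc1a6, the glutamate transporter known from cerebellar Purkinje cells, read 4.17 and 1.35 in Ip6k1+/+ and 0.72 and -0.13 in Ip6k1-/-. The groups did not overlap, yet the Ip6k1+/+ lines stood 2.81 apart and only replicate 1 was far above the rest. The difference was -2.47 (SE 0.97) and became -1.06 without Ip6k1+/+ replicate 1. Slc1a1, the glutamate carrier of epithelia and neurons, was well above background in Ip6k1+/+ replicate 1 alone on both of its probes, at -2.03 and -3.20. Slc1a2 and Slc1a7 were well above background on no array.

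The neutral amino acid carriers of the family spread less. Slc1a5, which brings in glutamine, read 3.25 and 3.55 in Ip6k1+/+ and 2.73 and 2.60 in Ip6k1-/-. Both Ip6k1-/- lines were below both Ip6k1+/+ lines and each genotype was tight, with a difference of -0.74 (SE 0.21), or 1.67-fold lower. Leaving out any 1 line kept this difference between -0.89 and -0.59. Slc1a4, the alanine, serine and cysteine carrier, read 0.62, 0.56, 0.63 and 0.31 with A_52_P273098, so its genotypes overlapped, and differed by -0.12 (SE 0.24).

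Slc43a1, a facilitative carrier of leucine and other large neutral amino acids, had the lowest unadjusted p of the transporters. Its probe A_51_P362483 read -1.65 and -0.83 in Ip6k1+/+ and -3.78 and -2.99 in Ip6k1-/-. The groups did not overlap and the gap between them, 1.34 at the nearest lines, was wider than that within either genotype, 0.82 and 0.79. In both genotypes replicate 2 was above replicate 1. The difference was -2.14 (SE 0.47), or 4.42-fold lower, with an adjusted p = 0.994 by limma. It ranged from -2.55 to -1.74 when any 1 line was left out and was -1.43 after normexp background correction.

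Slc43a3, which is known as a purine nucleobase carrier despite its family, read 1.95 and 0.96 in Ip6k1+/+ and 1.74 and 2.33 in Ip6k1-/-. Its genotypes overlapped, with a difference of 0.58 (SE 0.42). Slc43a2, another large neutral amino acid carrier, followed the replicate number and not the genotype with A_51_P296182, at -2.65 and -2.89 in the replicate 1 lines and not well above background in either replicate 2 line.

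**Figure D3:**
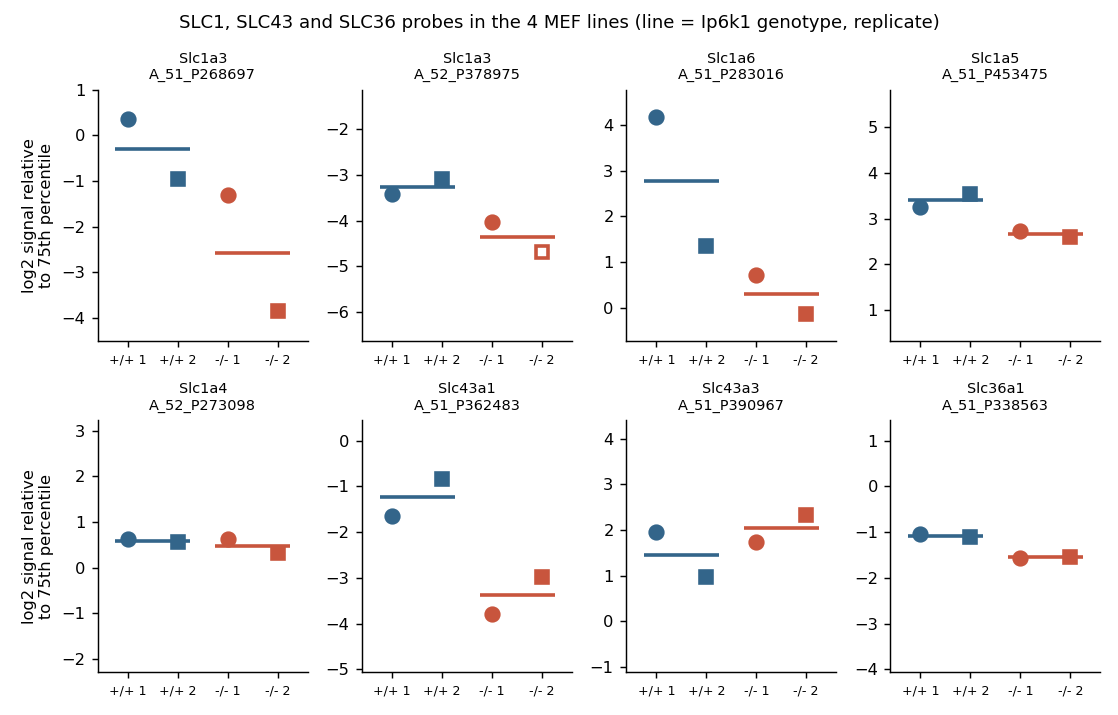
Levels (vertical axis, log2 signal relative to the 75th percentile of the array) of 8 probes of SLC1, SLC43 and SLC36 in the Ip6k1+/+ lines (blue) and Ip6k1-/- lines (red). Circles are replicate 1, squares replicate 2, open symbols are not well above background, horizontal bars are the mean of 2 lines, and every panel spans the same number of log2 units. The Slc1a5 and Slc36a1 lines sit close within each genotype, while Slc1a3 and Slc1a6 differ widely between lines of a genotype. The Slc43a1 lines are further apart within a genotype than those of Slc1a5, but less so than the gap between genotypes.

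Each of the probes behind the lower signals reads one short stretch of its transcript, and their first 30 of 60 bases, copied from the array design, are given to identify what was measured. Those of Slc1a3 (chr15:8584236-8584295, minus strand), Slc1a6 (chr10:78277447-78277506, plus strand), Slc1a5 (chr7:17383359-17383418, plus strand) and Slc43a1 (chr2:84703269-84703328, plus strand), all in mm9 with the coordinates of the whole probe, are as follows.
Slc1a3 A_51_P268697: gtttacccggtgtgatattttttatactaa
Slc1a6 A_51_P283016: tgaacatacatgttctgtgtgggttctctg
Slc1a5 A_51_P453475: cctaccctctcaggaaatgggttgtcctgt
Slc43a1 A_51_P362483: tcgtgttcatagagccgggttctgtggatt

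Slc3a2, the heavy chain CD98 that takes the light chains to the cell surface, read 5.53 and 5.58 in Ip6k1+/+ and 5.31 and 5.31 in Ip6k1-/- with A_51_P472901. Both Ip6k1-/- lines were lower, by a small difference of -0.25 (SE 0.16), whereas its probe A_52_P245648 overlapped with a difference of -0.05 (SE 0.26). Slc7a5, the main light chain for leucine and its relatives, read 2.43, 2.17, 2.40 and 2.34, and its difference was 0.07 (SE 0.21). Slc7a6, a light chain that exchanges cationic for neutral amino acids, had probes of opposite sign, -0.13 (SE 0.26) for A_52_P462071 and 0.29 (SE 0.28) for A_51_P484289. Slc7a8, a light chain of broad specificity, was well above background in Ip6k1+/+ replicate 1 alone, at -4.25, and Slc3a1, the heavy chain of kidney and intestine, likewise at -4.57.

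Among the cationic carriers, Slc7a1, the widespread arginine and lysine carrier, read 1.53 and 1.76 in Ip6k1+/+ and 1.59 and 1.57 in Ip6k1-/- with A_51_P475672. The lines overlapped with this probe and the difference was -0.07 (SE 0.21). Its other probe, A_51_P243246, read -3.08 and -3.13 in Ip6k1+/+ and -3.17 and -3.28 in Ip6k1-/-, without overlap. The difference there was -0.12 (SE 0.31). Slc7a3, a cationic carrier best known from brain, was chosen after its values were seen. It read 1.60 and 1.18 in Ip6k1+/+ and 1.02 and 0.16 in Ip6k1-/-, without overlap, with a difference of -0.80 (SE 0.37).

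Slc7a11, the cystine and glutamate exchanger that supplies cysteine for glutathione, gave readings that depended on the probe. Its 4 probes lie on the minus strand of chromosome 3 in mm9, 3 of them within 6.35 kb at the low-coordinate end under one RefSeq transcript, NM_011990, and A_52_P298824 at 77.1 kb from the lowest, under the transcript AK089283. The first 30 bases of each, from the highest to the lowest coordinate, show that they are different sequences.
Slc7a11 A_52_P298824 (chr3:50246786-50246845): aagggttatttctgtggagtaaatgaatgg
Slc7a11 A_51_P129502 (chr3:50176047-50176106): cctctagcgtattcaaattaatttttgagc
Slc7a11 A_52_P663446 (chr3:50170338-50170397): tgcaaccaaaattttaactaggttcttctt
Slc7a11 A_52_P368057 (chr3:50169700-50169759): agtaatgtatcaggagctttatgtaaatgt

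With A_52_P368057 the levels were -2.80 and -2.24 in Ip6k1+/+ and -1.31 and -5.37 in Ip6k1-/-, the last not well above background. The Ip6k1-/- lines thus stood on either side of the Ip6k1+/+ lines, 4.07 apart, and the difference of -0.82 (SE 1.37) became 1.21 without Ip6k1-/- replicate 2. A_52_P663446 read -4.58, -3.13, -2.56 and -4.39, again highest in Ip6k1-/- replicate 1, with a difference of 0.38 (SE 0.82). A_51_P129502 was highest in that line too, at -3.56, and was well above background only there and in Ip6k1+/+ replicate 2. A_52_P298824 ran the other way within Ip6k1-/-, since it was well above background in replicate 2 alone, at -2.99 against -5.35 in replicate 1 and -6.99 and -6.97 in the Ip6k1+/+ lines. No genotype difference is given for that probe, because only 1 of the 4 arrays measured it.

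**Figure D4:**
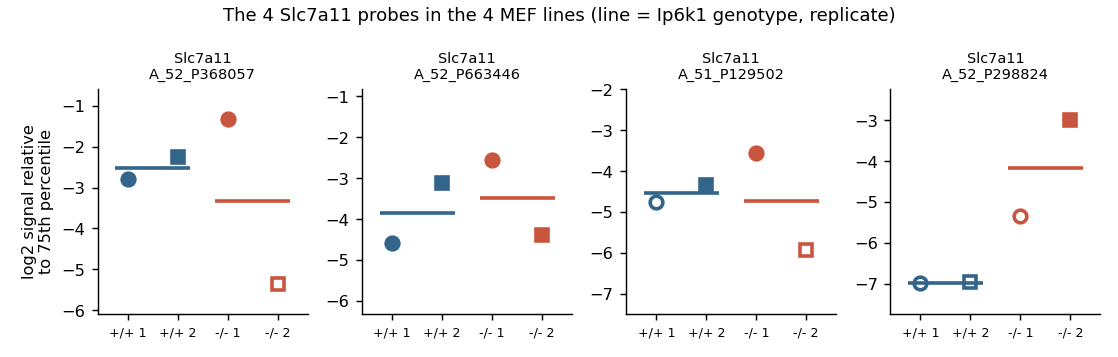
Levels (vertical axis, log2 signal relative to the 75th percentile of the array) of the 4 Slc7a11 probes in the 4 lines, with colours, symbols and bars for Ip6k1+/+ (blue), Ip6k1-/- (red), replicate 1 (circles), replicate 2 (squares), values not well above background (open) and means of 2 lines. In 3 probes Ip6k1-/- replicate 1 is the highest line, and in A_52_P298824 Ip6k1-/- replicate 2 is, at -2.99.

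The taurine, creatine and glycine carriers of SLC6 overlapped between genotypes. Slc6a6, the taurine carrier, read 4.67 and 3.84 in Ip6k1+/+ and 4.63 and 4.60 in Ip6k1-/- with A_52_P339996, a difference of 0.36 (SE 0.32), and its probe A_52_P178151 gave -0.06 (SE 0.46). Slc6a8, the creatine carrier, read 2.85, 3.43, 3.39 and 2.74, a difference of -0.08 (SE 0.33). Slc6a9, the glycine carrier, read 4.41, 4.06, 4.21 and 3.63, a difference of -0.32 (SE 0.28).

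Slc6a17, a synaptic vesicle carrier of neutral amino acids in neurons, had the most positive differences and was chosen after its values were seen. Its probe A_52_P373637 read -5.53 and -4.05 in Ip6k1+/+ and -4.04 and -2.31 in Ip6k1-/-, the first of these not well above background. Both Ip6k1-/- lines were above both Ip6k1+/+ lines, by 0.01 at the nearest, and the difference was 1.61 (SE 0.81). The other Slc6a17 probes, A_51_P215374 and A_51_P330388, differed by 1.25 (SE 0.80) and 0.84 (SE 0.57) with overlapping lines. All 3 probes lie within one short stretch of the gene and are not independent of each other. In each of them replicate 2 was above replicate 1 in both genotypes.

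Several dim members appeared in 1 line only. Of the 115 probes, 10 were well above background on exactly 1 array, 5 of them in Ip6k1+/+ replicate 1, 1 in Ip6k1+/+ replicate 2, 3 in Ip6k1-/- replicate 1 and 1 in Ip6k1-/- replicate 2. In Ip6k1+/+ replicate 1 these were the Slc1a1 pair, Slc7a8, Slc3a1 and Slc6a12, a betaine and GABA carrier, at -1.47. In Ip6k1-/- replicate 1 they were Slc15a2, a high-affinity peptide carrier, at -3.70, Slc6a20a, an imino acid carrier, at -3.76, and Slc6a13, a GABA and taurine carrier, at -2.99 with A_51_P438083. Slc6a13 has a pair of overlapping probes on chromosome 6 that share 40 bases, and the other, A_52_P221824, read -5.52 in that line and was not well above background. The first 30 of the shared bases, in capitals to mark that both probes hold them, are those of A_51_P438083 at chr6:121287597-121287656 (mm9, plus strand).
Slc6a13 shared bases: GGTCCACACATTGTGACGTGCCCGAATCAA

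The system A carriers of SLC38, which take up glutamine, alanine and other small neutral amino acids, divided by gene. Slc38a1 was lower in Ip6k1-/- with 5 of 5 probes. A_51_P507053 read 3.22 and 3.87 in Ip6k1+/+ and 2.94 and 3.53 in Ip6k1-/-, so the lines overlapped, and replicate 2 was above replicate 1 in both genotypes. Its difference was -0.31 (SE 0.33). Both Ip6k1-/- lines were below both Ip6k1+/+ lines with A_51_P133005, at 2.00 and 2.50 against 2.58 and 3.12, a difference of -0.60 (SE 0.30), and with A_52_P430462, at -0.82 and -0.17 against 0.06 and 0.54, a difference of -0.79 (SE 0.35). The remaining Slc38a1 probes overlapped, with differences of -0.06 and -0.07. Slc38a2, the system A carrier that cells raise on amino acid shortage, was higher with 3 of 4 probes. Its A_51_P458384 read 4.33 and 5.02 in Ip6k1+/+ and 4.70 and 4.96 in Ip6k1-/-, overlapping, with a difference of 0.15 (SE 0.29). The probes under transcript AK164568 disagreed. A_51_P199314 was lower in both Ip6k1-/- lines with a difference of -0.55 (SE 0.35). The brighter A_52_P459046 overlapped, with a difference of 0.28 (SE 0.34). Slc38a4, a carrier from an imprinted gene, varied between lines of one genotype. It read -0.54 and 1.42 in Ip6k1+/+ and 1.50 and 0.54 in Ip6k1-/- with A_52_P48569, a difference of 0.58 (SE 0.74) that was -0.40 without Ip6k1+/+ replicate 1. Its probe A_52_P12403 read -3.48 and -1.27 in Ip6k1+/+ and -0.80 and -1.92 in Ip6k1-/-, overlapping too, with a difference of 1.02 (SE 0.85).

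The lysosomal carriers differed by small amounts. Slc38a9, which signals lysosomal arginine to mTORC1, read -0.25, -0.33, -0.06 and -0.24 with A_52_P236963, and its difference was 0.14 (SE 0.24). Slc36a1, a lysosomal proton-coupled carrier, read -1.05 and -1.11 in Ip6k1+/+ and -1.56 and -1.54 in Ip6k1-/- with A_51_P338563. Its genotypes did not overlap and each was tight, with a difference of -0.47 (SE 0.27), in which the SE draws on the spread of all probes. Slc36a4, of the same family, was lower on both probes, by differences of -0.36 (SE 0.38) and -0.37 (SE 0.31). Slc15a4, a lysosomal histidine and peptide carrier, was higher in both Ip6k1-/- lines, at 2.45 and 2.61 against 2.37 and 2.11, with a difference of 0.29 (SE 0.21).

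The 7 tested members not described so far were chosen after their values were seen. Slc7a4, Slc7a7, Slc7a6os, Slc38a7, Slc6a16 and Slc6a7 had overlapping genotypes and differences of -0.37 (SE 1.00), 0.29 (SE 0.52), 0.20 (SE 0.26), -0.43 (SE 0.42), -0.08 (SE 0.33) and -0.05 (SE 0.34). Slc38a10 was lower in both Ip6k1-/- lines on both of its probes, by -0.14 (SE 0.18) and -0.35 (SE 0.33). The other members were not tested, and no difference is given for them. Over the 52 transporter probes that were well above background on no array the median difference was 0.33, the same as over all 16649 such probes of the array.

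Genes next to the transporters in amino acid metabolism were compared from lists of other carriers, of the amino acid response and of amino acid sensing. For each of these lists and for the transporters known as targets of the response, limma with Benjamini-Hochberg adjustment called 0 probes. Unadjusted limma p-values under 0.05 numbered 1 among 14 tested probes of the other carriers, 4 among 27 of the response genes, 0 among 49 in sensing and 1 among 16 of the targets, where 3.35% of all probes tested were at that level. Of the other amino acid carriers, 12 of 17 listed genes were tested, 9 were higher and 3 lower, with a median difference of 0.23 beside 0.04 over all genes tested. Slc16a10, a carrier of aromatic amino acids, was the 1 gene of this list past the 2-fold cutoff, and read -2.91 and -2.33 in Ip6k1+/+ and -1.12 and -1.63 in Ip6k1-/-, without overlap, a difference of 1.24 (SE 0.38).

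Amino acid response genes are those transcribed by ATF4 and its partners when amino acids are short. All 20 were tested, 8 higher and 12 lower, with a median difference of -0.19 that was 0.04 without Ip6k1+/+ replicate 2. Its inducers and enzymes did not move together. Atf4 differed by 0.13 (SE 0.26) and Chac1, a glutathione-degrading enzyme, by 0.11 (SE 0.23), while Asns, the asparagine synthetase, was lower in both Ip6k1-/- lines with 6.26 and 6.51 against 6.05 and 6.12, a difference of -0.30 (SE 0.18). The lowest were Pycr1, an enzyme of proline synthesis, at -0.89 (SE 0.24), Cebpb, a transcription factor of several stress responses, at -0.85 (SE 0.25) with its brighter probe, and Atf5, a factor related to ATF4, at -0.76 (SE 0.20), each without overlap between genotypes. Cebpb was the 1 gene of this list past the 2-fold cutoff, with its probe A_52_P605846 at -1.21 (SE 0.27). The 9 transporters known as targets of this response, Slc7a11, Slc7a5, Slc3a2, Slc7a1, Slc7a3, Slc38a2, Slc1a4, Slc1a5 and Slc6a9, were higher for 2 and lower for 7, with a median of -0.25 that was -0.03 without Ip6k1-/- replicate 2.

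Of the 32 listed genes of amino acid sensing by mTORC1, 31 were tested, 19 higher and 12 lower, with a median difference of 0.06. Rragd, a Rag GTPase, was the 1 gene of this list past the 2-fold cutoff, lower with levels of -3.25 and -0.97 in Ip6k1+/+ and -4.41 and -3.31 in Ip6k1-/-, of which 3 were well above background. The lines did not overlap with this probe, and its difference was -1.75 (SE 0.88). Its nearest lines were close, Ip6k1+/+ replicate 1 at -3.25 and Ip6k1-/- replicate 2 at -3.31, and Ip6k1+/+ replicate 2 stood far above both. The other Rragd probe, A_52_P490032, was well above background on 1 array only. It read -7.02 and -3.40 in Ip6k1+/+ and -6.98 and -6.03 in Ip6k1-/-, with overlap.

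**Figure D5:**
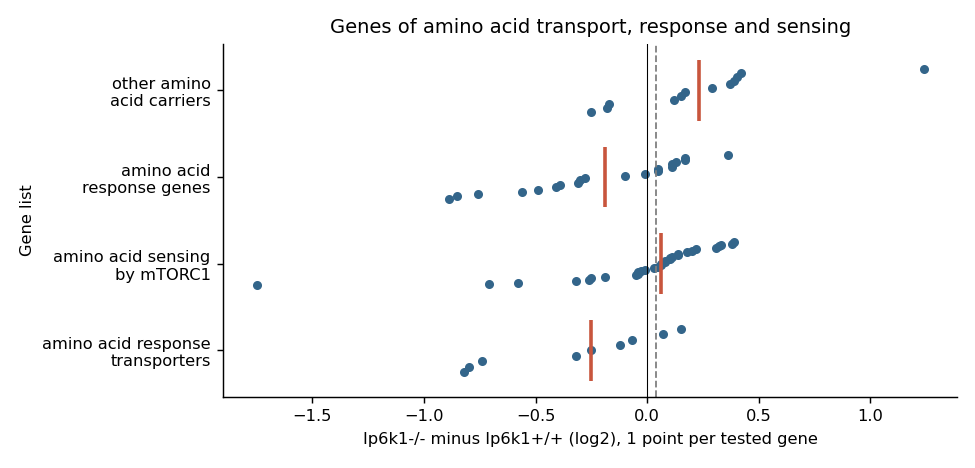
Difference between genotypes (horizontal axis, Ip6k1-/- minus Ip6k1+/+, log2) of the tested genes of 4 lists, 1 point per gene, with the median of each list in red and the median of all genes tested, 0.04, dashed. The other amino acid carriers have a median of 0.23 and the response transporters one of -0.25. Slc16a10 at 1.24 and Rragd at -1.75 stand apart from the rest of their lists.

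ATF4 binds a composite element whose letters may be written TGATGNAAN. Read on both strands of the RefSeq promoters (GRCm38.p6, 250 bases before to 50 after each start), it was present in 3.95% of 32851 promoters. Promoters were found for 48 of the 67 transporter names, and 4 of these, Slc7a11, Slc1a4, Slc7a7 and Slc15a5, held it in 5 of 69 promoters, a share of 7.25%. The Slc7a7 promoters overlap and have a match in common, which is counted in each. The Slc15a5 match lies 26 bases after the start. Of the 20 amino acid response genes 19 had a promoter, and 7 held the letters. The 9 response transporters had 6 with a promoter and 2 with the letters. Both are counts of genes with the letters in any of their promoters. They cannot be set against the share of promoters, and the share over all genes was not counted. The promoter of Slc7a11, whose probes disagreed, held them as a facing pair, starting 66 and 48 bases before the start. The 250 bases before the start are printed with both matches in capitals, at chr3:50443614-50443863 (GRCm38.p6, minus strand). These letters describe the sequence and no binding was measured.
Slc7a11 promoter: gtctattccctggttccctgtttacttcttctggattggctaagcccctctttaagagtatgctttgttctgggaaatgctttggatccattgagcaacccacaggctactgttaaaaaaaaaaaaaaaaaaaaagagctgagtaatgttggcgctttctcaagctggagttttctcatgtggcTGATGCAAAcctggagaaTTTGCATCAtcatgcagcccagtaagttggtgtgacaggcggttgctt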

How the data were processed

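RNA of 4 MEF lines was labelled with Cy3 from oligo(dT)-primed cDNA and hybridised to Agilent 4x44k mouse arrays, 1 array per line, all on 1 slide with 1 scan day. The authors deposited the scanner output of Feature Extraction 10.5.1.1, in which the processed signal is a background-subtracted intensity per spot. They also deposited a table of log2 values shifted to the 75th percentile in GeneSpring GX, used as an alternative. The scanner headers name the build mm9. The limit on precision is the number of arrays, 2 per genotype.

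Here log2 of the processed signal minus the 75th percentile of each array (signals of 607, 746, 611 and 678) was used for 41174 probes. Outlier spots were left out, spots of one probe averaged, and probes kept whose signal was well above background in both lines of one genotype or the other (21572 probes, 14334 gene names). Over the arrays, 52.0% to 55.5% of probes were well above background. limma 3.58.1 in R 4.3.3 fitted genotype with a variance trend and Benjamini-Hochberg adjustment over all tested probes, and the script was tested on simulated data. The 2-fold cutoff follows the study's methods, to which the limit of 0.9 on each line was added. A gene was represented by its tested probe of highest mean signal. Summed levels are log2 of summed signal of a list's represented genes. No transporter probe was saturated or held an outlier spot.

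Genes named were, by rule, the brightest of each family, those past the 2-fold cutoff or with the 3 smallest p-values, those whose tested probes differed by over 1, and a list of 24 known carriers. All other transporters named, among them those detected in 1 line or on no array, were chosen after their values were seen. The members and the lists, including those of cell type markers, were chosen with earlier results of these data known. Sequences came from the array design and from the RefSeq promoter table. All 67 transporter names matched the RefSeq gene table. The comparisons of a probe with exons or UTRs were not made, since no genome of mm9 was used here. Alternatives were another background correction, quantile and median scaling, the deposited log2 table, other filters, outlier spots kept, a replicate block, limma without the trend, the methods' t-test, and leaving out each line.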

Additional observations from a re-analysis of the deposited data

How the results depend on the processing

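No transporter probe was called by limma under any of the alternatives run, and the number with an unadjusted p under 0.05 ran from 1 to 10, against 3. Over all probes that share was 3.35%, beside 6.0% of the transporter probes. The replicate numbers do not mark a shared batch in the labels. Deviations of same-numbered lines correlated at r = 0.479 over 21572 probes, and with the replicate number as a block 10 of 50 transporter probes had an unadjusted p under 0.05, beside 8.14% of all probes, with 0 called. A block for slide or scan could not be fitted, because all 4 arrays share both. For normexp, 5 spots of Ip6k1+/+ replicate 2 under their local background were left out. Slc43a1 was past the 2-fold cutoff under every alternative, with -2.14 becoming -1.43 under normexp.

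Without a filter on dim probes the median of all genes moved by 0.14. That setting gave 2 transporter genes higher and 6 lower past 2-fold. The genes it added were Slc15a2 and Slc7a11, higher, and Slc1a1, Slc6a12 and Slc7a8, lower. Each of these passed with a probe well above background on only 1 array. In the same setting 47 of 115 probes had both Ip6k1-/- lines above (40.9%, beside 38.1% of all probes). Its medians were -0.74 for SLC1, -0.22 for SLC3, 0.31 for SLC6, 0.0 for SLC7, -0.35 for SLC36 and 0.14 for all families. The mean difference alone as the cutoff gave 2 genes higher. No share of all gene names past 2-fold is given for it or for the setting without a filter. The SLC3 median was -0.31 with quantile normalization, -0.20 with the median shift and -0.15 as a mean over probes. The SLC7 median was -0.05 with the median shift, 0.0 with probes well above background on all 4 arrays and -0.01 as a mean over probes. The SLC36 median was -0.27 with normexp. The cause of these shifts was not tested.

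Leaving out each line in turn gave 0 to 2 genes higher past 2-fold (2 without Ip6k1+/+ replicate 2 or Ip6k1-/- replicate 2) and 3 to 5 lower (5 without Ip6k1-/- replicate 1). The share of all gene names past 2-fold is not given for these settings, so the counts cannot be set against it. Non-overlapping probes numbered 9 to 17 above (17 without Ip6k1+/+ replicate 2) and 20 to 26 below (26 without Ip6k1+/+ replicate 1), where fewer lines make non-overlap easier. Without Ip6k1+/+ replicate 2 the share of transporter probes above was 34.0%, beside 39.7% of all probes. Without Ip6k1+/+ replicate 1 the share below was 52.0%, beside 27.8% of all probes. Whichever line was left out, the transporter share above was under that of all probes and the share below was over it. The medians ran from -1.85 to -0.84 for SLC1, -0.27 to -0.22 for SLC3, -0.22 to -0.01 for SLC7, -0.06 to 0.11 for SLC6, 0.16 to 0.42 for SLC15, -0.46 to -0.38 for SLC36, -0.30 to 0.06 for SLC38, -1.13 to -0.44 for SLC43, -0.19 to -0.05 for all families, -0.02 to 0.10 for mTORC1 sensing and -0.28 to -0.03 for the response transporters. Of all 50 tested probes, 23 changed sign when 1 line was left out. Among probes named by rule they included those of Slc1a4 (-0.28 to 0.04), Slc38a1 (-0.64 to 0.02), Slc38a2 (-0.20 to 0.50), Slc38a4 (-0.40 to 1.56), Slc6a6 (-0.05 to 0.77), Slc6a8 (-0.41 to 0.24), Slc7a1 (-0.18 to 0.05), Slc7a11 (-2.86 to 1.21), Slc7a5 (-0.06 to 0.20) and Slc7a6 (-0.37 to 0.10), and outside the rule they included Slc7a4 (-1.79 to 1.06), Slc7a7 (-0.37 to 0.94), Slc6a7 (-0.23 to 0.12) and Slc7a6os (-0.05 to 0.44). Signal near background limits the dim members, of which 27 of 67 gene names were not measured above it on any array.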
